A study of Mus musculus with 15 samples.

Results

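The comparison asked whether the thalamic transcriptional response to 5xFAD amyloid pathology differed between mice with and without Lilrb4a. It was measured per gene as an interaction, the deletion effect in 5xFAD mice minus the deletion effect in mice without 5xFAD, (5ELKO - 5EL) - (ELKO - EL), which equals the 5xFAD response without Lilrb4a minus the response with it. All 15 polyA RNA libraries of the series entered, 5 labelled 5EL, 4 labelled 5ELKO, 3 labelled EL and 3 labelled ELKO. By their stated genotypes, mice of every group carried homozygous human APOE4 in place of mouse Apoe (the Apoe values of 1 library went against this), 5EL and 5ELKO mice also carried the 5xFAD transgenes, and ELKO and 5ELKO mice were Lilrb4a-/-. The study's methods give an age of 4.5 months, and the labels name neither sex nor litter. Since every group carries APOE4, nothing here separates an effect of that allele. A gene was tested where its deposited log2 value was 3.32 (the log2 of 10) or more in at least 3 of 15 libraries, which kept 15804 of 29659 genes.

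Lilrb4a encodes an inhibitory receptor of myeloid cells whose cytoplasmic motifs recruit phosphatases and dampen signals from activating receptors that use ITAM adaptors such as Tyrobp. The 5xFAD transgenes carry human familial Alzheimer's disease mutations and are expressed in neurons from the Thy1 promoter. Around plaques, microglia adopt the disease-associated (DAM) state, with Cst7, Clec7a and Itgax among its induced genes and Lilrb4a itself a member, while astrocytes become reactive and express more Gfap and Serpina3n.

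Several libraries stood apart before any comparison. The deposited values of Lilrb4a were 2.33 in all 7 knockout libraries, 2.34, 2.42 and 2.38 in EL, and 2.66, 2.40, 2.48, 2.63 and 2.48 in 5EL, so every knockout library lay below every library with the gene, by as little as 0.01, and the gene was under the filter throughout. Mouse Apoe was 10.90 in the library labelled ELKO replicate 1 against 5.92 to 6.37 in the other 14, which goes against the APOE4 knock-in of that label. EL replicate 1 was high in liver genes, EL replicates 2 and 3 in hemoglobin genes, and 5EL replicate 1 and ELKO replicate 2 in choroid plexus genes. The thalamic markers Tcf7l2 (12.76 to 13.19) and Slc17a6 (13.68 to 14.01) were high throughout, while the cortical marker Neurod6 was between 3.27 and 3.52. In bulk tissue, fewer cells of a type and less RNA per cell cannot be told apart.

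No gene passed the interaction test at an adjusted p under 0.05 (limma with Benjamini-Hochberg adjustment, 0.0% of tested genes), and the smallest adjusted p was 0.99961. At nominal p under 0.05 the interaction held 432 genes (2.73%), 237 with a higher value (1.5%) and 195 with a lower value (1.23%). The nominal genes are therefore a ranking and not a set of calls. Of the 432, 106 higher and 84 lower genes also passed a fold of 1.2, and 26 of those 106 belonged to the set-apart lists of liver, blood, choroid plexus and other non-parenchymal genes. With every library recentred on its own median the nominal counts became 345 higher and 125 lower. EL and ELKO libraries of the same number were correlated in their deviations from the group means (r = 0.45, 0.33 and 0.74 over tested genes), and with these pairs as a replicate block the counts were 384 higher and 404 lower, again with 0 genes at an adjusted p under 0.05.

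More genes reached nominal significance in the 5xFAD response with Lilrb4a than without it, in groups of unequal size. With Lilrb4a present (5EL against EL), 1217 genes (7.7%) had a nominal p under 0.05, 604 higher and 613 lower. In its absence (5ELKO against ELKO), 375 genes (2.37%) did, 234 higher and 141 lower. Neither comparison held a gene at an adjusted p under 0.05, with smallest adjusted p of 0.630 with Lilrb4a and 0.99946 without it by limma. Over all tested genes the median absolute response was 0.065 with Lilrb4a and 0.047 without it on the log2 scale. The count with Lilrb4a depended on the EL libraries. Without EL replicate 3 the response with Lilrb4a held 176 higher and 179 lower genes, and without EL replicate 1 it held 1683 and 1521, with 31 genes at an adjusted p under 0.05 in that fit. The 2 comparisons share no library, and their responses correlated at r = 0.28 across the 15804 genes, which are not independent replicates.

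**Figure D1:**
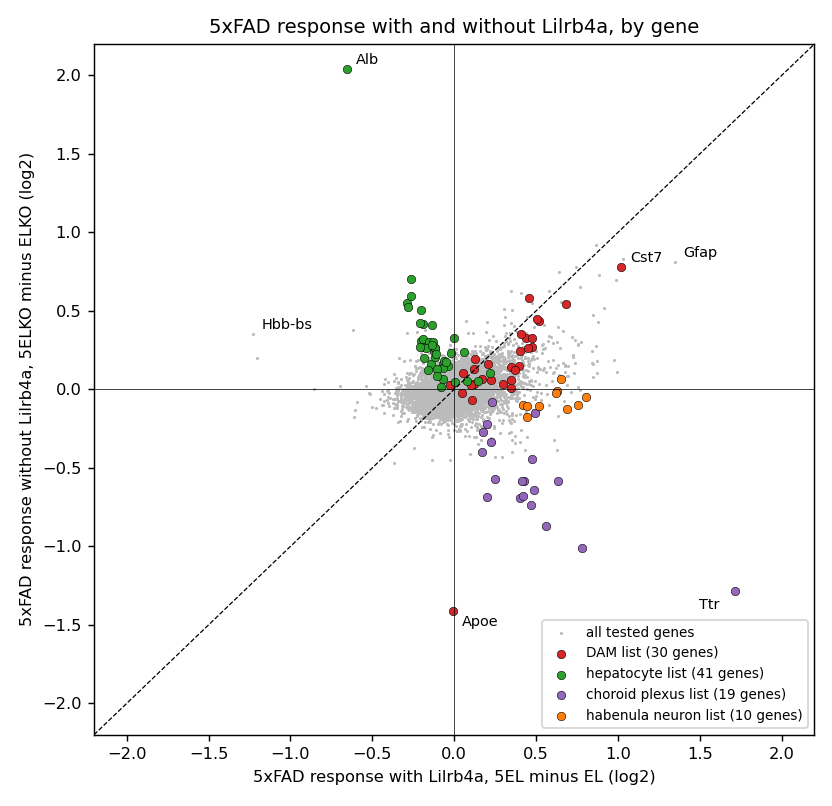
5xFAD response with Lilrb4a (x axis, 5EL minus EL, log2) against the response without it (y axis, 5ELKO minus ELKO, log2), 1 point per tested gene, with 4 gene lists in colour and the dashed line marking equal responses. Cst7 and Gfap lie in the upper right below the line, most of the 41 hepatocyte genes lie to the upper left with Alb farthest, and the 19 choroid plexus genes lie to the lower right with Ttr farthest.

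To compare response sizes, genes were ranked by the p-value of the 5xFAD term of an additive model. The estimate of that term is uncorrelated with the interaction, but its p-value is not independent of it. A gene whose response differs by Lilrb4a genotype has a wider residual spread in that model and is less likely to be picked. No gene reached an adjusted p under 0.05 in the additive limma fit (smallest 0.497). The 196 genes at nominal p under 0.01 (1.24%) were therefore used, a threshold chosen after seeing the data. Of these, 140 were higher and 56 lower with 5xFAD. Their median response, signed by the additive estimate, was 0.20 with Lilrb4a and 0.16 without it, with a median interaction of -0.04. The response was larger with Lilrb4a in 132 of 196 genes (67.3%), beside 62.5% of all tested genes by the same measure. The interaction was at nominal p under 0.05 in 6 of them (3.06%), near the 2.73% of all genes. Since the picking works against such genes, this share does not show how often the responses differed.

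The 10 genes with the smallest additive p were C4b, Lrrc1, C3ar1, Gfap, Serpina3n, Sall1, Cst7, Plat, Dlx1 and Ctsz, all higher with 5xFAD in both genotypes. Their median response was 0.59 with Lilrb4a and 0.51 without it, and 5 of 10 were larger in each direction. C4b, the complement component cleaved in the classical pathway, responded by 0.77 with Lilrb4a and 0.65 without it (interaction -0.12, 95% interval -0.69 to 0.45, and 0.07 without EL replicate 3). C3ar1, the receptor for the C3a fragment, responded by 0.34 and 0.36 (interaction 0.02, 95% interval -0.29 to 0.33). Sall1, a transcription factor of microglial identity, responded by 0.16 and 0.28 (interaction 0.12, 95% interval -0.07 to 0.31). Plat, the tissue plasminogen activator, responded by 0.12 and 0.24 (interaction 0.12, 95% interval -0.04 to 0.28).

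Most DAM genes had a positive 5xFAD response in both genotypes, 27 of 30 in each. Of the 32 listed, Ccl4 and Lilrb4a were under the filter. The response was at nominal p under 0.05 in 20 with Lilrb4a and in 8 without it, all higher, beside 7.7% and 2.37% of all tested genes. The median responses were 0.35 and 0.13. The interaction was negative in 24 of 30 and its median was -0.12, beside -0.0017 over all tested genes, and 1 gene, Gusb, had a nominal p under 0.05. The lowest DAM value, -1.40 for Apoe, came from the library labelled ELKO replicate 1. Without Apoe, the mean over 29 genes was 8.54 to 8.57 in EL, 8.62 to 8.66 in ELKO, 8.67 to 8.97 in 5EL and 8.59 to 9.03 in 5ELKO. The 5EL range lay inside the 5ELKO range, while the EL and ELKO ranges did not meet. The median deletion effect over these 29 genes was 0.11 without 5xFAD and -0.02 with it.

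Of the DAM genes, Cst7 had the largest responses. Cst7, an inhibitor of lysosomal cathepsins, was 5.31, 5.38 and 5.34 in EL, and 6.80, 5.68, 6.14, 6.59 and 6.59 in 5EL. It was 5.73, 5.30 and 5.31 in ELKO, and 6.87, 5.58, 5.86 and 6.59 in 5ELKO. The 5EL and 5ELKO ranges overlapped, and the responses of 1.02 and 0.78 differed by -0.24 (95% interval -1.07 to 0.59). Clec7a, a pattern-recognition receptor, responded by 0.52 and 0.44, Itgax, the CD11c integrin chain, by 0.68 and 0.54, and Gpnmb, a lysosomal glycoprotein, by 0.41 and 0.35. Trem2, the DAM lipid receptor, went the other way with 0.46 and 0.58 (interaction 0.13, 95% interval -0.48 to 0.73), and its adaptor Tyrobp responded by 0.48 and 0.27 (interaction -0.21, 95% interval -0.76 to 0.35). The intervals of these genes admit differences as large as the responses themselves. Leaving out 5ELKO replicate 2, the lowest 5ELKO library for Cst7 and Clec7a, brought the interaction to -0.03 for Cst7, 0.08 for Clec7a, 0.32 for Trem2 and -0.07 for Tyrobp, and the list median to -0.03.

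Gusb, the lysosomal beta-glucuronidase, was 8.14, 8.10 and 8.13 in EL and 8.43, 8.35 and 8.29 in ELKO. With 5xFAD it was 8.52, 8.33, 8.46, 8.54 and 8.50 in 5EL and 8.54, 8.15, 8.38 and 8.58 in 5ELKO. EL stood below all other groups, which overlapped. The interaction was -0.29 ± 0.12 (SE, limma nominal p = 0.033, exact two-sided permutation p = 0.042, or 0.087 with labels swapped only within same-numbered EL and ELKO pairs), and the nominal p was above 0.05 in 7 of 15 fits that left out a single library, with -0.20 without 5ELKO replicate 2. Cd74, the MHC class II invariant chain, responded by 0.35 with Lilrb4a and 0.01 without it (interaction -0.34, 95% interval -0.71 to 0.04, and -0.18 without ELKO replicate 2, a library high in choroid plexus genes). Ctsd, a lysosomal protease, responded by 0.40 and 0.15 (interaction -0.25, 95% interval -0.63 to 0.13, and -0.15 without 5ELKO replicate 2).

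**Figure D2:**
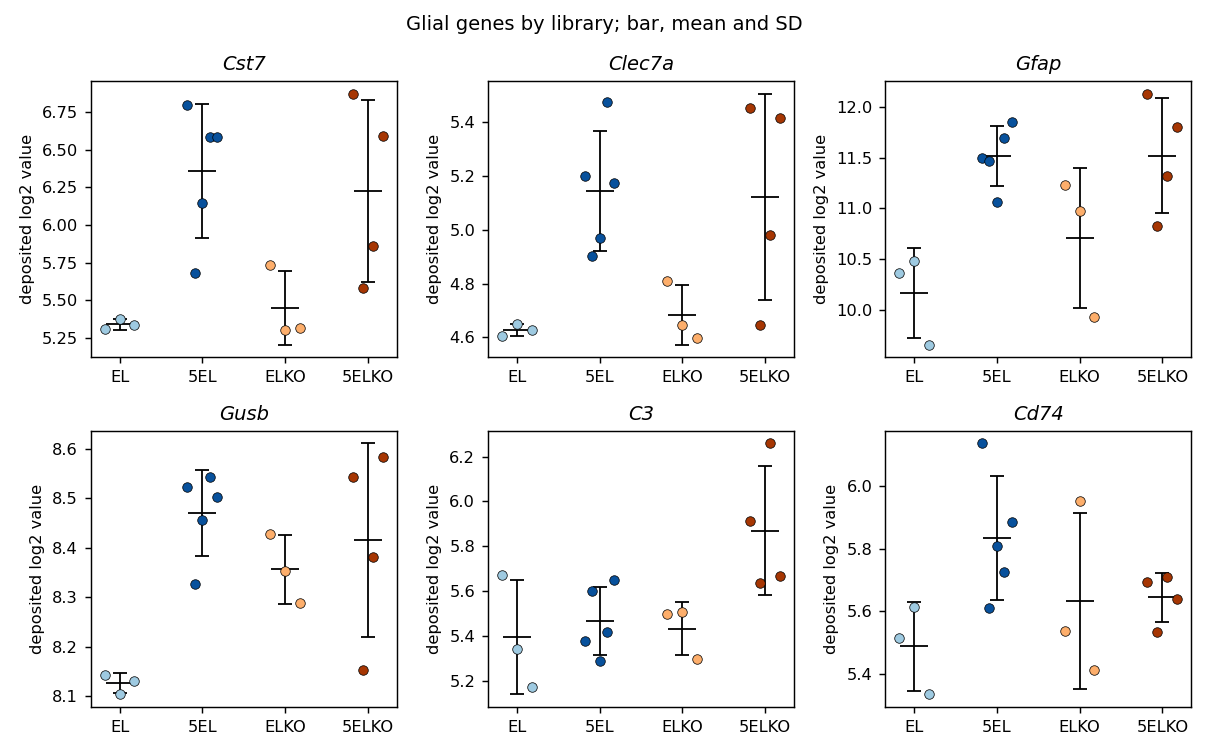
Deposited log2 values of 6 glial genes in each library (points) of the 4 genotypes, with bars for the mean and SD. 5EL and 5ELKO libraries overlap for Cst7, Clec7a and Gfap, and for Gusb the EL libraries lie below the ELKO libraries.

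The promoter of Cst7 is shown because this gene had the largest DAM response in both genotypes. The 250 bases before its RefSeq start (GRCm38.p6, chr2:150570165-150570414, plus strand) read as follows, with a GGAAGT core, the ETS-type letters bound by PU.1 in myeloid cells, in capitals.
Cst7: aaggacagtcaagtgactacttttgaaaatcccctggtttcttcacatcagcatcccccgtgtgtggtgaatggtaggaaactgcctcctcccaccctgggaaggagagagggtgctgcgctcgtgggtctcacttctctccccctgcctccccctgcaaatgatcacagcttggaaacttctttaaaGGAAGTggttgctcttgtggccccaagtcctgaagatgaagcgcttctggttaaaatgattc
On either strand GGAAGT was present in this window in 7 of 24 tested DAM genes that matched a RefSeq promoter (29.2%), beside 22.2% of 27025 gene symbols with a promoter. This describes the letters and not binding.

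Other microglial lists gave no nominal interaction. Over 17 homeostatic genes the median response was 0.13 with Lilrb4a and 0.15 without it. Cx3cr1, the fractalkine receptor, responded by 0.13 and 0.28, Tmem119 by 0.10 and -0.09, and P2ry12, a purinergic receptor, by -0.01 and 0.06. The 16 tested genes of Fc receptor and ITAM signaling, a list that also holds the phosphatase genes Inpp5d, Ptpn6 and Ptpn11, had median responses of 0.14 and 0.10. Of them, 7 and 2 were at nominal p under 0.05, beside 7.7% and 2.37% of all tested genes, and 0 for the interaction. The 2 without Lilrb4a were Fcgr2b and Ptpn6. The 17 antigen presentation and 18 interferon-stimulated genes had median interactions of -0.0039 and 0.0074.

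Over the 12 complement genes the median response was 0.30 with Lilrb4a and 0.21 without it, and the median interaction was -0.08. C3, the central component, was 5.67, 5.34 and 5.17 in EL, and 5.38, 5.60, 5.29, 5.42 and 5.65 in 5EL. It was 5.50, 5.50 and 5.30 in ELKO, and 5.91, 5.64, 6.26 and 5.67 in 5ELKO. The response was 0.07 with Lilrb4a and 0.44 without it, with an interaction of 0.36 whose 95% interval of -0.06 to 0.79 included 0. Without EL replicate 1 it was 0.23.

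Among reactive astrocyte genes, Gfap and Serpina3n showed large responses in both genotypes and wide intervals. Over the 21 tested genes of the list the median response was only 0.06 with Lilrb4a and 0.04 without it. Gfap, the intermediate filament of reactive astrocytes, was 10.36, 10.48 and 9.66 in EL, and 11.49, 11.47, 11.06, 11.70 and 11.85 in 5EL. It was 11.23, 10.97 and 9.93 in ELKO, and 12.13, 10.83, 11.32 and 11.80 in 5ELKO. EL and 5EL did not overlap, while ELKO and 5ELKO did. The responses were 1.35 and 0.81 (interaction -0.54, 95% interval -1.48 to 0.41). The Gfap interaction was -0.28 without the library labelled ELKO replicate 1 and -0.93 without ELKO replicate 3. Serpina3n, a secreted protease inhibitor, responded by 0.99 and 0.70 (interaction -0.29, 95% interval -1.06 to 0.48), and the difference was -0.04 without 5ELKO replicate 2. Of 21 tested genes, Aspg, an asparaginase, had an interaction of 0.27 (95% interval 0.06 to 0.48) and Cd44, the hyaluronan receptor, of 0.40 (95% interval 0.0019 to 0.80), the latter 0.17 without EL replicate 3. The median interaction of the list was -0.05, and over 16 homeostatic astrocyte genes it was 0.06, with 14 positive.

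Of 18 thalamic neuron genes, 7 had a nominal p under 0.05 in the response with Lilrb4a, all lower, and 0 in the response without it, beside 7.7% and 2.37% of all tested genes in either direction. The medians were -0.15 and -0.01. The interaction was positive in 16 and at nominal p under 0.05 in 1. Lef1, a Wnt-pathway transcription factor of thalamic neurons, was 10.10, 10.40 and 10.68 in EL, and 10.06, 9.73, 9.73, 10.11 and 10.24 in 5EL. It was 9.97, 9.91 and 10.16 in ELKO, and 10.09, 10.22, 9.92 and 10.09 in 5ELKO. EL replicates 2 and 3 exceeded all other libraries, and the interaction of 0.49 (95% interval 0.08 to 0.89, exact two-sided permutation p = 0.063) was 0.35 without EL replicate 3. Prkcd, a kinase of relay neurons, responded by -0.52 and -0.02, an interaction of 0.50 that was 0.20 without EL replicate 3, with 14.72 in EL replicate 3 against 13.22 to 14.05 elsewhere.

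Genes of the habenula, the nucleus adjoining the medial thalamus, had the largest shift of any brain list. All 10 had a negative interaction, with a median of -0.63, median responses of 0.63 with Lilrb4a and -0.10 without it, and 0 at nominal p under 0.05. Gpr151, an orphan receptor of habenular neurons, was 9.35, 8.96 and 7.61 in EL, and 8.52, 10.09, 9.38, 9.29 and 9.70 in 5EL. It was 9.45, 9.87 and 8.395 in ELKO, and 9.19, 8.87, 9.67 and 8.82 in 5ELKO. EL replicate 3 was the lowest of all libraries, and without it the list median was -0.24. Without EL replicate 1 the list median was -0.94, with 3 genes at nominal p under 0.05. All 15800 genes tested in that fit held 589 higher and 639 lower at that threshold. With the mean hemoglobin level as a covariate the list median was 0.10, and what the dissection contributed was not tested. GABAergic and reticular thalamus genes had median responses of 0.68 and 0.50 over 12 genes and a median interaction of -0.06, which was 0.28 without EL replicate 3 and -0.29 without EL replicate 1.

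The oligodendrocyte, vascular, immediate early and chaperone lists had median interactions between -0.08 and 0.10, with larger values for single genes. All 15 myelin genes had a positive interaction (0.01 to 0.28, median 0.10) with 0 at nominal p under 0.05, and without EL replicate 3 the split was 8 positive and 7 negative. Among 16 endothelial genes, Flt1, the VEGF receptor, had an interaction of 0.29 (95% interval 0.02 to 0.57) and Slc2a1, the blood-brain barrier glucose transporter, of -0.37 (-0.73 to -0.01). When single libraries were left out, the nominal p of Flt1 was above 0.05 in 8 of 15 fits and that of Slc2a1 in 10, with -0.23 for Slc2a1 without the library labelled ELKO replicate 1. Of 16 immediate early genes, Junb (-0.39, 95% interval -0.72 to -0.06) and Btg2 (-0.41, -0.76 to -0.05) were at nominal p under 0.05. Junb lost it in 3 of 15 such fits, with -0.25 without EL replicate 3, and Btg2 in 5. The lists of 18 chaperone, 12 pericyte and smooth muscle, 12 oligodendrocyte precursor and 20 cholesterol and fatty acid synthesis genes held 0.

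PPAR targets and other lipid-handling genes outside the liver list, 29 of 30 tested, held 0 genes at nominal p under 0.05 in the interaction and a median of -0.0033. Pparg itself was near the filter, at 4.32 ± 0.05 in EL, 4.29 ± 0.09 in 5EL, 4.32 ± 0.02 in ELKO and 4.29 ± 0.03 in 5ELKO (mean ± SD), and its interaction of 0.01 had a 95% interval of -0.14 to 0.16. Fabp7, a fatty acid binding protein of astrocytes, responded by -0.12 and 0.24 (interaction 0.36, 95% interval -0.15 to 0.88), an interaction that was 0.09 without the library labelled ELKO replicate 1. Ucp2, a mitochondrial carrier, responded by 0.27 and -0.13 (interaction -0.40, 95% interval -0.81 to 0.02), and Plin2, the lipid droplet coat protein, by 0.03 and 0.08.

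**Figure D3:**
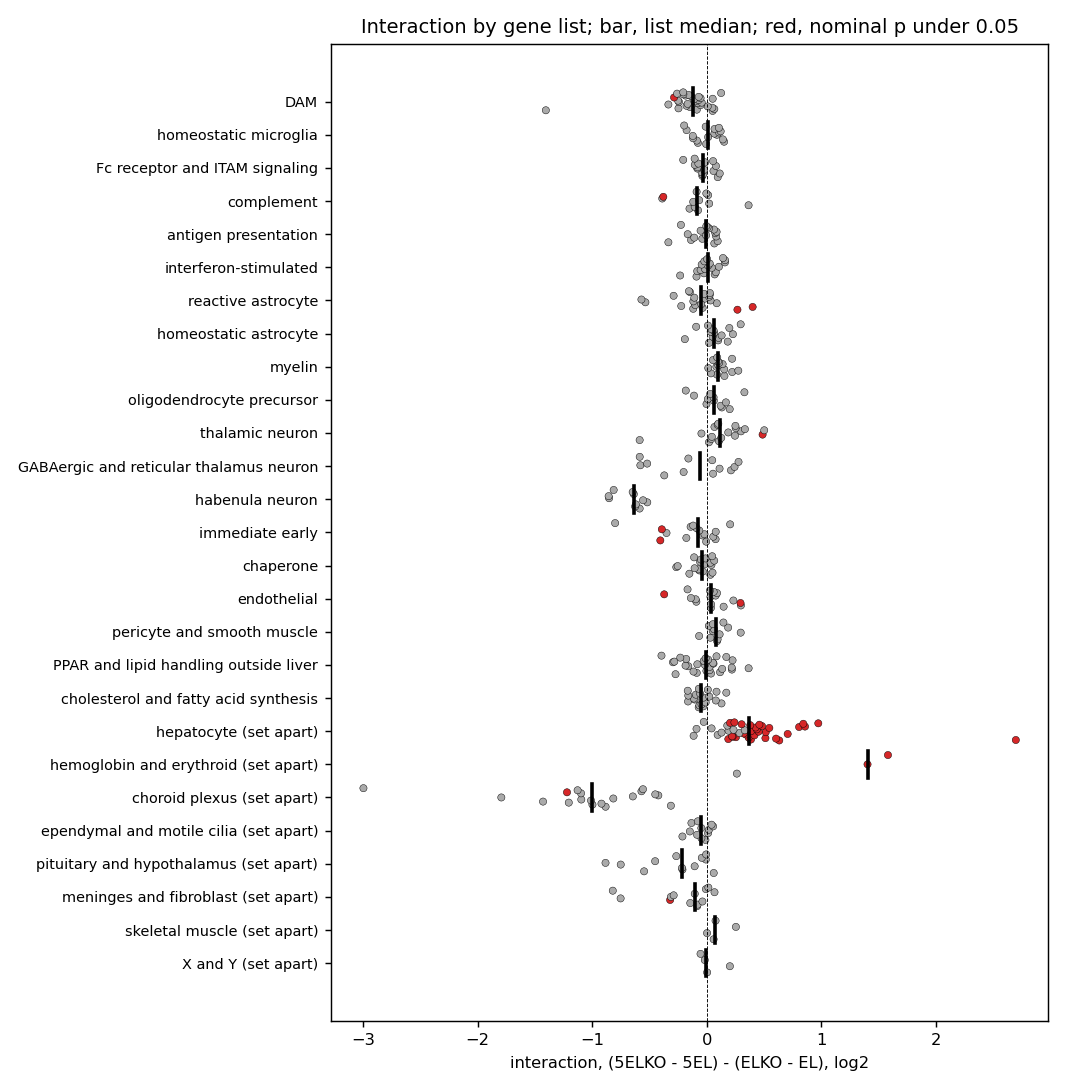
Interaction of each tested gene (points, log2) in 27 fixed lists, with a bar at the list median and red points at nominal p under 0.05. Medians of brain-cell lists lie between -0.12 and 0.12 apart from habenula genes at -0.63, and 30 of the red points are in the hepatocyte list.

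The genes with the smallest interaction p outside the set-apart lists had modest values and low spread, and were ranked on the contrast itself, so their p-values support nothing further. Fzd10, a Wnt receptor (GRCm38 chr5:128600844-128604093, plus strand), led with 8.24, 8.41 and 8.44 in EL, and 8.16, 7.95, 7.88, 8.05 and 8.08 in 5EL. It was 7.81, 8.01 and 8.19 in ELKO, and 8.16, 8.26, 8.16 and 8.24 in 5ELKO. The response was -0.34 with Lilrb4a and 0.20 without it, with an interaction of 0.54 ± 0.12 (SE, limma nominal p = 0.00051, adjusted p = 0.99961, exact two-sided permutation p = 0.0012). It was between 0.44 and 0.63 when each library was left out in turn. Wwtr1, the transcriptional co-activator TAZ of the Hippo pathway, was 8.60, 8.70 and 8.61 in EL, and 8.47, 8.35, 8.34, 8.58 and 8.49 in 5EL. It was 8.37, 8.48 and 8.48 in ELKO, and 8.56, 8.60, 8.60 and 8.52 in 5ELKO. EL lay above 5EL and above ELKO without overlap, and the interaction was 0.31 (95% interval 0.13 to 0.50).

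The other genes with a higher interaction were Wbscr16 (0.24), the p53-family factor Trp63 (0.38), Ccdc190 (0.43), Gc (0.55), the FGF-binding protein Fgfbp3 (0.46), Mansc1 (0.28), Spink10 (0.32) and Sec14l5 (0.31). Gc encodes the vitamin D binding protein of liver and plasma and was not on the hepatocyte list, and its values of 4.53 in EL replicate 1 and 4.12 to 4.52 in 5ELKO against 3.90 to 3.98 elsewhere followed those of Alb. Ccdc190 was 7.49 to 7.55 in EL, 7.26 to 7.45 in 5EL, 7.29 to 7.43 in ELKO and 7.36 to 7.78 in 5ELKO.

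On the lower side, Pkmyt1, a kinase that inhibits entry into mitosis, was 5.47, 5.55 and 5.43 in EL, and 5.63, 5.78, 5.53, 5.68 and 5.69 in 5EL. It was 5.56, 5.60 and 5.70 in ELKO, and 5.45, 5.38, 5.57 and 5.51 in 5ELKO. The interaction was -0.33 (95% interval -0.52 to -0.13). Ifitm1, an interferon-induced membrane protein, was 4.87 to 4.94 in EL, 5.03 to 5.09 in 5EL, 4.95 to 5.08 in ELKO and 4.85 to 4.99 in 5ELKO. Its interaction of -0.23 gave an exact permutation p of 0.00040, the smallest that the 2520 arrangements allow. The gene was ranked on this same contrast, so that p supports nothing further. Then came Tmem117 (-0.30), Ifit1bl1 (-0.24), the histone demethylase Kdm4d (-0.29), the secreted Wnt antagonist Sfrp5 (-0.58), Mum1l1 (-0.47), Emb (-0.53), the retinol transporter Stra6 (-0.56) and Klhl13 (-0.27). For Emb, the highest library was ELKO replicate 2 at 9.78, a library high in choroid plexus genes, and without it the interaction was -0.33. Stra6 was highest in 5EL replicate 1 (7.05) and ELKO replicate 2 (6.82), both high in choroid plexus genes. Its interaction was -0.47 without 5EL replicate 1.

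**Figure D4:**
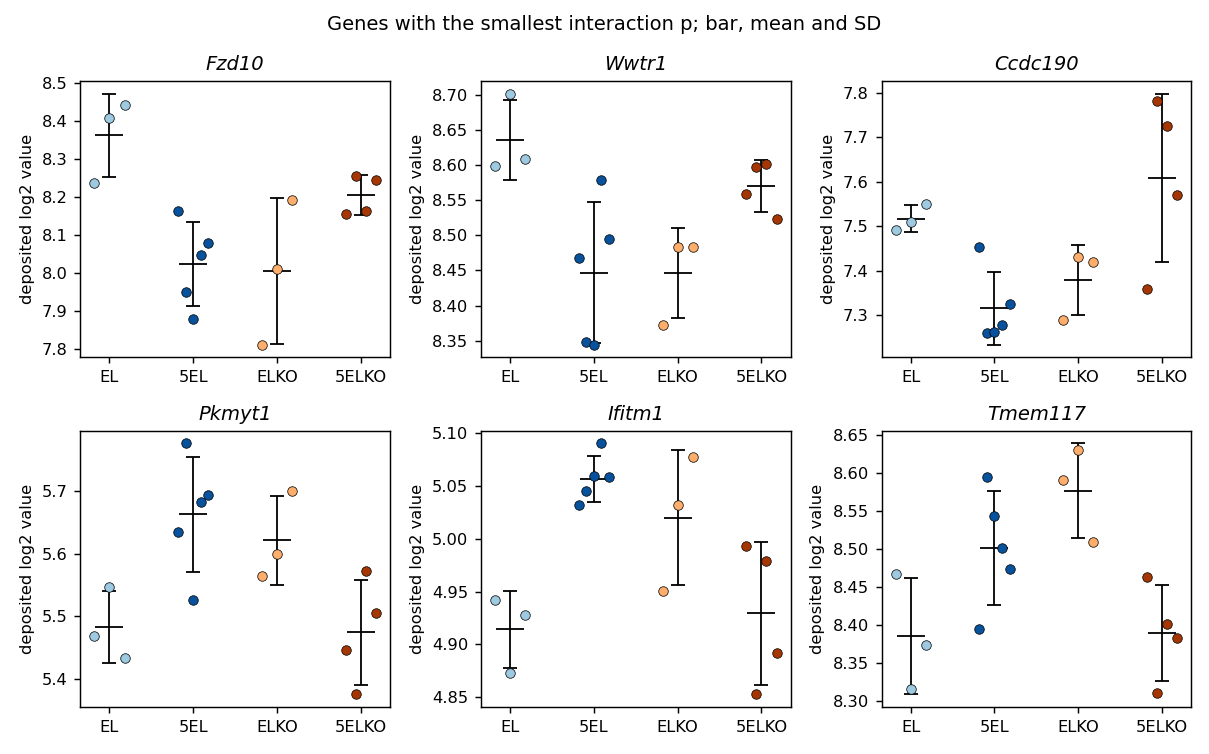
Deposited log2 values of the 3 leading genes with a higher and 3 with a lower interaction, by library (points), with bars for the mean and SD. For Wwtr1 the EL libraries lie above the 5EL and ELKO libraries, and for Ifitm1 the 5EL libraries lie above the EL and 5ELKO libraries.

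Liver genes held the most nominal interactions of any list and are set apart because thalamus does not contain hepatocytes. Of 51 listed, 41 were tested, and 30 had a nominal interaction above 0, beside 1.5% of all tested genes. The median response was -0.12 with Lilrb4a and 0.24 without it, and all 41 were above 0 in the latter. Alb, serum albumin, was 8.59, 5.91 and 5.75 in EL, and 6.55, 6.55, 5.78, 5.77 and 5.82 in 5EL. It was 5.69, 6.23 and 5.81 in ELKO, and 8.18, 7.22, 8.38 and 8.01 in 5ELKO. All 4 5ELKO libraries and EL replicate 1 were high, and the interaction was 2.697 ± 0.71 (SE, limma nominal p = 0.0016, exact two-sided permutation p = 0.0063), or 1.78 without EL replicate 1. Without that library 17 of 39 hepatocyte genes stayed nominally higher and 1 was lower, beside 589 higher and 639 lower of 15800 tested genes in that fit. Apoc3, an apolipoprotein made in liver, was 4.39 to 4.52 in 5ELKO against 4.21 to 4.35 in the other 3 groups (interaction 0.25, 95% interval 0.12 to 0.38). The defining hepatocyte markers Alb, Apoa1, Fga and Serpina1a all peaked in EL replicate 1. The mean over the tested hepatocyte genes was 5.08 in EL replicate 1, 4.51 and 4.55 in the other EL libraries, 4.53 to 4.63 in ELKO, 4.54 to 4.67 in 5EL and 4.76 to 5.00 in 5ELKO. With that mean as a covariate, the interaction over all genes held 960 higher and 1114 lower genes at nominal p under 0.05 and 0 at an adjusted p under 0.05 by limma.

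The promoter of Alb is given as the leading member of this list, since its genes were high in the same libraries. The 250 bases before its RefSeq start (GRCm38.p6, chr5:90460620-90460869, plus strand) contain GTTAAT, the core letters of HNF1 sites, in capitals.
Alb: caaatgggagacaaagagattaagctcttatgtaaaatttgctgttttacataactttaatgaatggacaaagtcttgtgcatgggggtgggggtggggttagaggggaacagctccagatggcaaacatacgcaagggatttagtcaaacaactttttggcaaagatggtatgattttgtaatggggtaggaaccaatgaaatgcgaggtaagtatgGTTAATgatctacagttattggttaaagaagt
GTTAAT on either strand was present in this window in 9 of 32 hepatocyte genes with a RefSeq promoter (28.1%), beside 7.49% of 27025 symbols.

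Hemoglobin genes depended on the EL libraries. Hbb-bs, a beta-globin, was 5.94, 7.13 and 8.28 in EL, and 5.79, 5.76, 5.72, 6.06 and 6.12 in 5EL. It was 5.63, 5.50 and 5.49 in ELKO, and 5.79, 5.60, 5.71 and 6.47 in 5ELKO. EL replicates 2 and 3 exceeded every other library. The interaction was 1.58 ± 0.50 (SE, limma nominal p = 0.0064, exact two-sided permutation p = 0.075, or 0.16 within pairs), and 0.998 without EL replicate 3. Hba-a1, an alpha-globin whose reads can be shared with Hba-a2, gave 1.40 and 0.74 without that library. Of 12 listed genes only Hbb-bs, Hba-a1 and Alas2 were tested.

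Choroid plexus values were set by individual libraries. All 19 had a negative interaction (-3.00 to -0.31, median -0.998), and 1, the BMP antagonist Sostdc1, had a nominal p under 0.05. Ttr, transthyretin, was 8.43, 9.37 and 7.72 in EL, and 13.71, 9.21, 10.30, 8.59 and 9.27 in 5EL. It was 9.16, 14.66 and 7.94 in ELKO, and 9.07, 8.72, 10.16 and 9.27 in 5ELKO. The high value of 5EL replicate 1 lifted the response with Lilrb4a, and that of ELKO replicate 2 lowered the response without it. Without both libraries the list median was 0.03, with 12 of 19 genes positive.

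**Figure D5:**
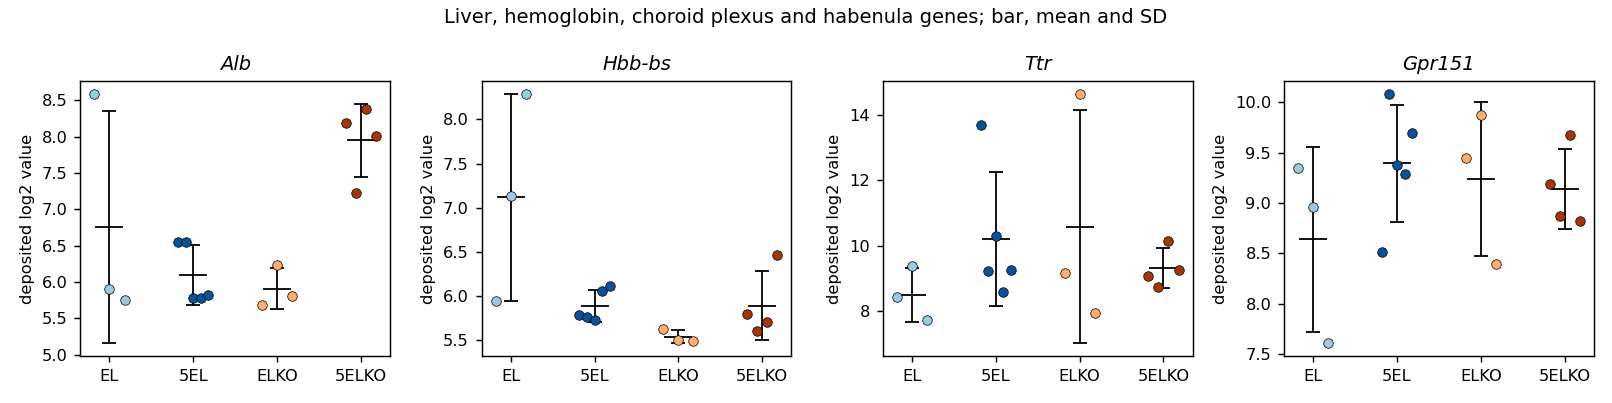
Deposited log2 values of Alb, Hbb-bs, Ttr and Gpr151 by library (points), with bars for the mean and SD. Single libraries carry the spread, EL replicate 1 for Alb, EL replicate 3 for Hbb-bs and Gpr151, and 5EL replicate 1 and ELKO replicate 2 for Ttr, whereas all 4 5ELKO libraries are high for Alb.

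The other set-apart lists held few nominal genes. Over 12 ependymal genes the median interaction was -0.05, over 12 pituitary and hypothalamus genes -0.21, over 13 meningeal genes -0.11 with Dcn at -0.32 (95% interval -0.61 to -0.03, and -0.21 without ELKO replicate 2), and over 4 skeletal muscle genes 0.07. Xist was at most 0.31 in any library and Ddx3y at least 10.35. Of the genes related to the transgenes, App and Thy1 had interactions of 0.06 and 0.01. Apoc1, next to Apoe, had 0.25 (95% interval 0.01 to 0.49), and 0.19 without the library labelled ELKO replicate 1. The Apoe interaction of -1.40 became 0.23 without that library.

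In 295 of the 432 nominal interaction genes (68.3%) the deletion difference was larger without 5xFAD than with it, beside 62.7% of all tested genes, and the groups without 5xFAD had 3 libraries each.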

How the data were processed

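Thalamus was dissected from PBS-perfused mice, and polyA RNA was sequenced in 15 libraries. Per the labels and methods, Trimmomatic 0.39 removed adapters and weak bases, HISAT2 2.2.1 placed the reads on GRCm38, and the authors obtained unstranded read pairs per gene from featureCounts 2.0.3 and normalised them in DESeq2 1.38.3. The deposited values are on a log2 scale (-2.27 to 18.98), and the transform is not given in the sources used here. Low genes were shrunk towards a common value (median within-group SD 0.0037 for genes with a mean below 0, against 0.11 for means of 6 to 8), so folds of low genes are understated, and the files do not give the reads behind a value. The study lists read totals and RNA integrity numbers for 5xFAD libraries only, which were not used here. Some 5ELKO libraries had a lower integrity number there than any 5EL library, and that list names more 5ELKO libraries than the series holds. No count test was possible.

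All 15 libraries were fitted with limma 3.58.1 (R 4.3.3; group means, empirical Bayes with trend, 11 residual degrees of freedom) over the 15804 tested genes, with Benjamini-Hochberg adjustment over all of them. Intervals are 95% limma intervals. Exact two-sided permutation tests moved the Lilrb4a label within each 5xFAD state (126 × 20 = 2520 arrangements), without the pairs. They are exact for a gene with no deletion effect in either state. For a gene with an equal deletion effect in both states they are not exact. With EL and ELKO labels swapped only within pairs (126 × 8 = 1008 arrangements, added after seeing the data), the printed p of Gusb moved past 0.05, and those of Lef1, Fzd10, Ifitm1, Alb and Hbb-bs kept their side of it. No label states that libraries came from separate mice, so p-values measure the spread between libraries. The 105 library pairs correlated at 0.9986 to 0.99983, and none was identical. Fits were tested on simulated data.

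Same-numbered EL and ELKO libraries were treated as pairs because all 3 correlations of deviations exceeded 0.1, while the 5EL and 5ELKO correlations were -0.07, -0.24, -0.03 and 0.14. The pairs entered only the replicate block within EL and ELKO and the within-pair permutations. The main fit, with its intervals, SEs, nominal p-values and list counts, did not include them. The genes named are the targeted genes, the 10 smallest interaction p in each direction outside the set-apart lists (passing over 9 Gm, Rik and pseudogene names), the 10 smallest additive p, up to 3 genes per list by interaction p, and hemoglobin genes, Alb and Ttr. Further DAM, microglial and lipid genes were named after their values were seen. The members, the 28 gene lists and the tests were chosen with earlier results of these data known. Coordinates are from GENCODE M21, and promoters from RefSeq (GRCm38.p6). Alternatives covered filters, variance priors, array weights, replicate blocks, recentring, covariates and left-out libraries. Results for some genes are not reported here.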

Additional observations from a re-analysis of the deposited data

Results flagged for a closer look

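Among 214 checks of a list mean or a named gene within 5EL or 5ELKO, 8 (3.74%) had an extreme library whose gap to its neighbour, as a share of the group range, passed Dixon's 95% critical value, where chance gives about 1 in 20. The mean of the tested choroid plexus genes was 7.79 in 5EL replicate 1 against 6.31 in the next library (gap share 0.846), and Sostdc1 was 7.60 there against 6.39 (0.831). In 5ELKO replicate 3 the choroid plexus mean was 6.35 against 6.16 (0.884). The mean of the hemoglobin and erythroid genes was 5.47 in 5ELKO replicate 4 against 4.99 (0.861), with Hba-a1 at 6.29 against 5.67 (0.920). The pituitary and hypothalamus mean was 5.33 in 5ELKO replicate 2, below the next value of 5.68 (0.922). Aspg was 5.02 in 5EL replicate 3 against 5.22 (0.798), and Lrrc1 was 8.43 in that library against 8.27 (0.751).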

How the results depend on the processing

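Counts are of genes at nominal p under 0.05, higher and lower. For the interaction they were 552 and 412 with no filter, 960 and 1114 with the hepatocyte mean as a covariate, 454 and 485 without EL replicate 1 and ELKO replicate 1, 384 and 404 with the replicate block within EL and ELKO, and 345 and 125 after recentring. Without 5EL replicate 1 and ELKO replicate 2 they were 167 and 124. A replicate block over all groups gave 275 and 215. Leaving out single libraries gave 162 to 589 and 105 to 639, lowest without ELKO replicate 2, highest without EL replicate 1. All alternatives held 0 interaction genes at an adjusted p under 0.05. For the response with Lilrb4a the counts were 101 and 111 with array weights (whose fit stopped short of its convergence tolerance), 397 and 406 with the choroid plexus covariate, 1453 and 1325 with the hepatocyte covariate, 237 and 213 with the hemoglobin covariate, 1746 and 1594 without EL replicate 1 and ELKO replicate 1, and 288 and 347 without EL replicates 1 and 3 (added after seeing the data). With no filter 968 were lower. Leaving out single libraries gave 176 to 1683 and 179 to 1521, and 0 to 31 adjusted calls. The filter-free and hepatocyte fits had 1 each. For the response without Lilrb4a the counts were 469 and 466 with no filter, 776 and 897 with array weights, 418 and 293 with the hemoglobin covariate, and 501 and 460 without EL replicate 1 and ELKO replicate 1. The hepatocyte covariate gave 280 lower. Leaving out single libraries gave 149 to 387 and 110 to 403, and 0 to 2 adjusted calls, with 2 also without EL replicates 1 and 3. The pairs of EL and ELKO gave no 5xFAD response, because 5xFAD libraries have no partner in them.

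The median interaction of the 196 additive genes moved to -0.11 with the hepatocyte covariate. The DAM median moved to -0.28 with the hemoglobin covariate. Habenula genes gave -1.48 with the hepatocyte and 0.10 with the hemoglobin covariate. Hepatocyte genes gave 0.021 with their own covariate, 0.59 with the hemoglobin covariate and 0.20 without EL replicate 1 and ELKO replicate 1. Hemoglobin genes gave 0.96 with array weights, 2.56 with the hepatocyte covariate, -0.071 with their own and 1.996 without EL replicate 1 and ELKO replicate 1, and 0.74 to 1.98 when single libraries were left out. Choroid plexus genes gave -1.82 with array weights, 0.025 with their own covariate and 0.027 without 5EL replicate 1 and ELKO replicate 2. Hba-a1 reversed to -0.071 with the hemoglobin covariate, and Apoe to 0.33 without EL replicate 1 and ELKO replicate 1. Apart from covariates built from the same genes, the cause of these shifts was not tested. Of 38 named genes at nominal p under 0.05, 27 stayed there in all 15 fits that left out 1 library and 11 in every alternative that tested them, among them Fzd10, Wwtr1, Pkmyt1, Tmem117, Alb and Apoc3. Many of the 38 were named for a small interaction p in these same libraries, which favours staying under the threshold. These counts are therefore no independent support, and the share over all nominal genes was not computed.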
